A study of Homo sapiens and Mus musculus with 21 samples.

Results

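T-cell receptor (TCR)-signalled thymocytes were taken from 2 single-cell libraries of mouse thymus as cells with transcripts of Cd69, a surface protein that thymocytes display after their receptor is engaged, together with transcripts of Egr1, Egr2 and Nr4a1, transcription factor genes that switch on within the first wave of the response. A cell entered the gate with at least 1 unique molecular identifier (UMI, 1 counted RNA molecule) of Cd69, a sum of at least 2 UMIs over Egr1, Egr2 and Nr4a1, at least 1 UMI of Trac (the TCR alpha constant gene), and 0 UMIs of Mki67, Top2a, S1pr1, Trdc, Klrd1 and Lyz2, which mark dividing, emigrating, gamma delta T, natural killer and myeloid cells. The gate held 518 cells of the 16079 cells with at least 500 genes and less than 10% of UMIs from mitochondrial genes, out of 17918 barcodes in all. Of these, 432 cells came from the control and 86 from the knockout library.

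The series studied DHX15, an RNA helicase that helps take spliceosomes apart and acts in the making of ribosomes, and its other samples were bulk libraries that were not used here. The control was 1 thymus library labelled DHX15-flox, with the floxed Dhx15 allele, and the knockout was 1 thymus library labelled DHX15-KO. Both came from mice 6 weeks old and were captured in 10x Genomics droplets. The sources used here do not give the Cre driver of the deletion or the number of mice behind each library. Library and genotype cannot be told apart, so no value below has a replicate check or a p-value, and all intervals are exact 95% intervals that cover counting error only.

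Thymocytes carrying both CD4 and CD8 test a newly made receptor against peptides shown by the thymic stroma. A signal of moderate strength leads to positive selection, while strong signals lead to death by negative selection or to agonist-selected lineages such as regulatory T cells. The signal runs from the receptor kinases LCK and ZAP70 through ERK, calcium and NF-kB to the EGR and NR4A factors, which in turn raise CD69, CD5 and a set of inhibitors that limit the response.

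The gated cells had a median of 4794.5 UMIs in the control and 4527 in the knockout, with sums of 2337915 and 432118 UMIs. The cells that shared the Trac requirement and the exclusions, whatever their Cd69 or Egr counts, are called base cells (4599 control and 1426 knockout cells). Base cells without any UMI of Cd69, Egr1, Egr2 or Nr4a1 are called unsignalled cells (3348 and 1086 cells, median depths of 3312.5 and 3522.5 UMIs), so gated cells were deeper than these in both libraries. The libraries shared 17 barcodes, of which 2 belonged to gated cells and 0 were gated in both. The median mitochondrial share of the gated cells was 3.14% in the control and 3.76% in the knockout.

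Dhx15 itself was lower in the gated cells of the knockout. It gave 189 CPM (UMIs of the gene per 1000000 UMIs of the cells) from 441 UMIs in the control and 97.2 CPM from 42 UMIs in the knockout, a ratio of 0.515 (0.366 to 0.708). Without the Trdc, Klrd1 and Lyz2 exclusions its log2 ratio was −0.54 in place of −0.96, inside the 1.5-fold limit of 0.58. In unsignalled cells the levels were 176 and 113 CPM, a ratio of 0.644. A UMI of Dhx15 was present in 57.4% of gated control cells and 36.0% of gated knockout cells, against 70.0% and 33.3% of Lyz2-high cells without Trac (10 cells with a median of 15029.5 UMIs and 54 cells with a median of 2561). The sources used here do not say whether the counted transcript ends lie inside the deleted part, so the remaining counts do not measure how many cells kept the gene.

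The knockout library held a smaller share of signalled thymocytes, and the size of that gap differed with the cells it was taken of. Gated cells made up 4.90% (4.46 to 5.37) of all filtered control cells and 1.18% (0.948 to 1.46) of filtered knockout cells, which is 4.14-fold more in the control. Of base cells they made up 9.39% (8.57 to 10.3) and 6.03% (4.85 to 7.39), which is 1.56-fold more in the control. Base cells themselves were 52.2% of filtered control and 19.6% of filtered knockout cells. Trac was seen in 77.5% of filtered control and 49.3% of filtered knockout cells, Mki67 or Top2a in 20.6% and 44.0%, and Trdc in 15.9% and 54.0%. The part of those gene sets in the share of filtered cells was not tested beyond leaving the Trdc, Klrd1 and Lyz2 exclusions out, which gave 5.56% and 1.54%.

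Among base cells, the shares with Cd69 lay close together in the libraries, and the shares that also had the Egr counts did not. Any Cd69 was present in 20.3% (19.2 to 21.5) of base cells in the control and 20.0% (17.9 to 22.2) in the knockout, and these intervals overlapped. Among those Cd69-positive cells, 432 of 934 control cells (46.3%, 43.0 to 49.5) and 86 of 285 knockout cells (30.2%, 24.9 to 35.9) also had the Egr counts, and these intervals did not overlap. With each cell thinned to 2000 UMIs, which left out 6.03% of filtered control and 3.76% of filtered knockout cells as shallower, the same shares were 42.3% and 25.3%. Cells with Cd69 and no UMI of Egr1, Egr2 or Nr4a1 were 8.74% of control base cells and 12.6% of knockout base cells. Cells with the Egr sum and no Cd69 were 2.85% and 1.75%. In Lyz2-high cells without Trac, which should lack these transcripts, 0 of 10 control cells and 0 of 54 knockout cells met the Cd69 and Egr counts together, which allows shares of up to 30.0% and 5.56%.

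**Figure D1:**
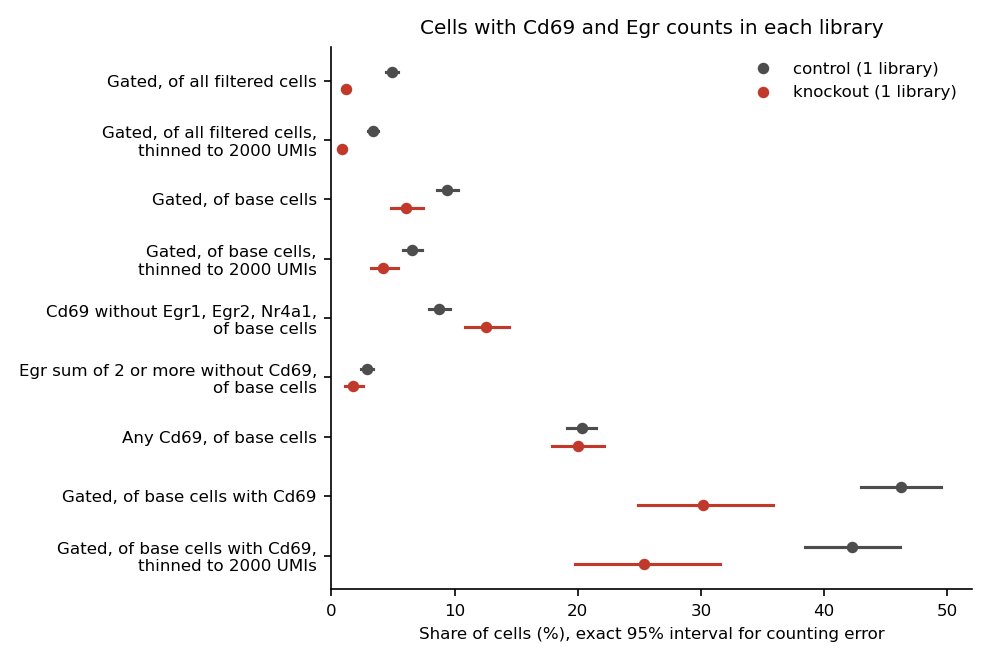
Share of cells (x axis, %) that met the Cd69 and Egr counts, for each denominator named on the y axis, in the control (grey) and knockout (red) library, with exact 95% intervals for counting error. Any Cd69 was near 20% of base cells in both libraries, while gated cells were 46.3% and 30.2% of Cd69-positive base cells.

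Levels were also summed over all base cells, which were not chosen by Cd69 or Egr counts. Cd69 was at 179 CPM in the control and 175 CPM in the knockout (ratio 0.973, 0.907 to 1.04). Egr1 was at 169 and 84.3 CPM (ratio 0.498, 0.453 to 0.548) and Egr2 at 29.6 and 7.95 CPM (ratio 0.268, 0.195 to 0.361). Nr4a1, the orphan nuclear receptor NUR77 that tracks signal strength, was at 87.8 and 68.6 CPM (ratio 0.781, 0.699 to 0.871). Both Egr genes were thus past 1.5-fold lower over base cells, and Cd69 and Nr4a1 were not.

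Over base cells, 3 of 15 immediate early genes outside the rule and the EGR target Nab2 were past 1.5-fold lower. Nab2, a corepressor that EGR factors induce and that binds them, was at 83.8 CPM in the control and 36.3 CPM in the knockout (ratio 0.433, 0.374 to 0.499). Cd5, whose surface level follows the strength of TCR signals, was at 287 and 208 CPM (ratio 0.724, 0.680 to 0.770), inside the 1.5-fold limit. Of the 15 immediate early genes measured apart from the gate genes, 0 were past 1.5-fold higher and 3 were past 1.5-fold lower: Nr4a3 (22.8 and 13.3 CPM), Zfp36l1 (280 and 167 CPM) and Arc (6.37 and 2.48 CPM). Their median log2 ratio was −0.25. Over all 9373 genes with at least 100 UMIs in base cells, 7.43% were past 1.5-fold higher and 7.63% lower.

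Inside the gate, the genes that chose the cells had broad distributions, given here as a description. Cd69 had a median of 3 UMIs per gated cell in the control (range 1 to 79) and 6 in the knockout (range 1 to 38). The Egr1, Egr2 and Nr4a1 sum had a median of 7 (range 2 to 80) and 6.5 (range 2 to 75). Egr1 had medians of 4 and 3 UMIs, Egr2 was seen in 46.3% of control and 26.7% of knockout cells, and Nr4a1 in 47.0% and 59.3%. Summed over gated cells, Cd69 was at 1015 CPM in the control and 1500 CPM in the knockout, Egr1 at 1078 and 933 CPM, Egr2 at 201 and 102 CPM, and Nr4a1 at 597 and 856 CPM. Trac had a median of 7 UMIs in both libraries.

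Cd5, which the rule did not use, followed the label. A UMI of Cd5 was present in 84.5% of gated control cells and 82.6% of gated knockout cells, against 21.3% of unsignalled cells in each library and 1 of 10 and 0 of 54 Lyz2-high cells. Its median per gated cell was 4 UMIs (range 0 to 23) in the control and 3.5 (range 0 to 17) in the knockout. Summed over gated cells it was at 875 CPM (838 to 914) and 947 CPM (857 to 1043), and the ratio of 1.08 (0.970 to 1.20) lay inside the 1.5-fold limits.

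**Figure D2:**
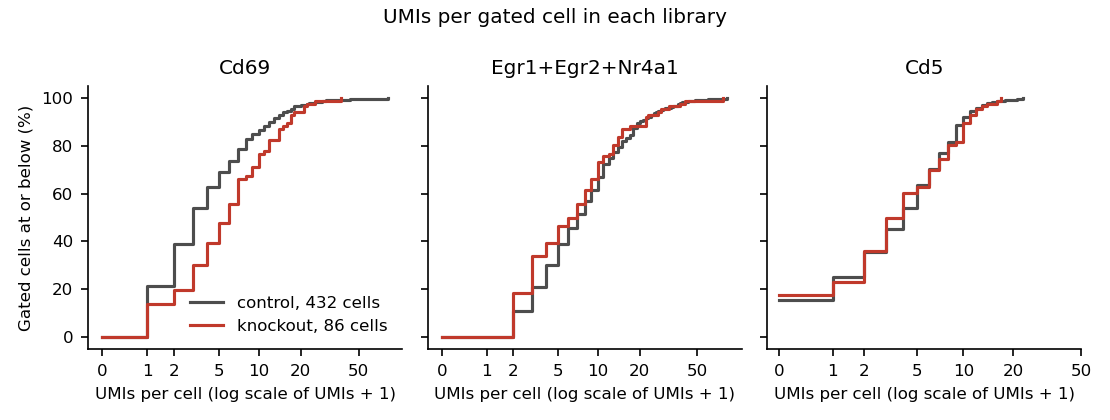
Cumulative share of gated cells (y axis, %) at or below a number of UMIs per cell (x axis, log scale of UMIs + 1) for Cd69, the Egr1, Egr2 and Nr4a1 sum, and Cd5, in 432 control cells (grey) and 86 knockout cells (red). The Cd69 curve of the knockout lies to the right of the control (medians of 6 and 3 UMIs), and the Cd5 curves run close together (medians of 3.5 and 4).

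At the edge of the gate, 48 control and 16 knockout cells had an Egr sum of exactly 2, just inside, and 100 control and 20 knockout cells with Cd69 had a sum of 1, just outside. Cd5 was at 865 and 742 CPM just inside and at 577 and 972 CPM just outside. Nr4a3 was at 20.8 and 67.5 CPM just inside and at 35.3 and 0 CPM just outside. In the control, Cd5 was higher just inside than just outside, Nr4a3 was not, and in the knockout the Cd5 values had the opposite order.

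Signalled cells differed from unsignalled cells of their own library by a shared set of genes. Of 9029 genes with at least 100 UMIs over the 4 sums, 594 (6.58%) were past 1.5-fold higher in gated cells in both libraries and 890 (9.86%) were past 1.5-fold lower in both. The leading genes were Nr4a3, the third NR4A receptor gene, and Fos, an AP-1 subunit gene. Each library was compared with its own unsignalled cells.

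Nr4a3 was at 148 CPM in gated and 0.989 CPM in unsignalled control cells, and at 171 and 0.674 CPM in the knockout, log2 differences of 7.23 and 7.99. Fos was at 37.6 against 0.494 CPM and at 62.5 against 0.449 CPM, log2 6.25 and 7.12. Ccl4, a chemokine of activated T cells, was at 53.5 against 0.824 CPM and at 97.2 against 1.12 CPM, log2 6.02 and 6.43. These 3 genes were each near or below 1 CPM in unsignalled cells of both libraries. The next were Tagap (log2 4.80 and 6.42), which encodes a GTPase-activating protein of T cells, Trib1 (4.22 and 3.44), Nfkbid (4.06 and 4.29), Gadd45b (3.97 and 4.72), Cd40lg (3.90 and 4.05), Gpr183 (3.82 and 4.42), Hivep3 (3.57 and 4.29), Nab2 (3.39 and 5.73) and Ier2 (3.37 and 3.39). Cd5 had log2 differences of 2.71 and 3.37.

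The 890 genes that were lower in signalled cells included genes of the CD4+CD8+ stage. Of 23 genes listed for that stage, 17 were past 1.5-fold lower in gated cells in both libraries and 0 were higher, against 9.86% lower over all genes. Rag1, a subunit of the recombinase that rearranges receptor genes, was at 311 CPM in gated and 2681 CPM in unsignalled control cells, and at 90.3 and 2018 CPM in the knockout, log2 −3.11 and −4.48. Rag2, the other subunit, was at 49.6 against 280 CPM and at 37.0 against 238 CPM. Dntt, which adds bases at the joins, was at 346 against 1529 CPM and at 347 against 1851 CPM. The recombination genes were therefore lower in signalled cells of both libraries.

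The CD8 genes followed the same direction. Cd8b1 was at 811 against 3220 CPM in the control and at 583 against 2704 CPM in the knockout. Cd4 was at 295 against 684 CPM and at 296 against 649 CPM. Among the lowest genes of the whole contrast were also Xrra1 (log2 −3.99 and −2.97), Morc1 (−3.55 and −2.81), Slc7a11, a cystine transporter gene (−3.06 and −2.77), Rnf157 (−2.74 and −3.29) and Dhrs3, a retinaldehyde reductase gene (−2.66 and −3.33).

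**Figure D3:**
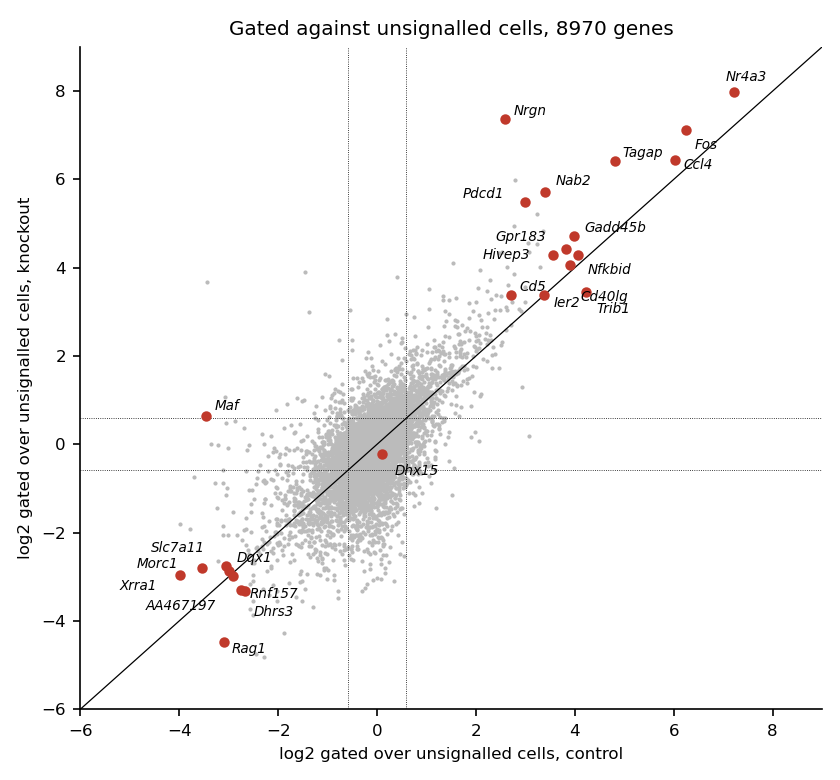
Log2 ratio of summed CPM in gated over unsignalled cells in the control (x axis) and in the knockout (y axis) for 8970 genes with a UMI in all 4 sums, with named genes in red, dotted lines at 1.5-fold and the line of equal values. Nr4a3, Fos and Ccl4 lie at the upper right in both libraries and Rag1 at the lower left, while Maf lies on opposite sides of 0.

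Pathway genes were past the fold in both directions between gated and unsignalled cells. Over all genes 6.58% were higher in both libraries and 9.86% lower. Of 15 immediate early genes, 9 were past 1.5-fold higher in gated cells of both libraries and 2 were lower. Of 26 feedback inhibitors, 12 were higher and 1 was lower, with Dusp2, a nuclear phosphatase of ERK, at 730 against 116 CPM in the control and 1060 against 86.7 CPM in the knockout. Of 32 genes of the MAPK, calcium and NF-kB relay, 10 were higher and 2 lower, and of 26 proximal receptor genes 3 were higher and 5 lower. Whether these lists differ from each other was not tested.

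Of 34 positive selection and maturation genes, 20 were higher in gated cells of both libraries and 1 was lower. The shares over all genes were 6.58% higher and 9.86% lower. Itm2a, a membrane protein gene induced during positive selection, was at 1727 against 218 CPM in the control and 1345 against 113 CPM in the knockout. Bcl2, the survival gene that selected thymocytes express, was at 639 against 87.7 CPM and at 347 against 41.6 CPM. Of 14 agonist selection and regulatory T genes, 9 were higher and 2 lower. Bcl2l11, which encodes the death protein BIM, was at 311 against 78.4 CPM in the control and 363 against 78.4 CPM in the knockout. Of 37 ribosome biogenesis genes, 13 were higher and 1 lower.

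Most gated cells retained transcripts of CD4 or CD8. Cd4 together with Cd8a or Cd8b1 was seen in 40.5% (35.8 to 45.3) of gated control cells and 41.9% (31.3 to 52.99) of gated knockout cells, against 81.3% and 85.8% of unsignalled cells. Cd4 alone was seen in 15.7% and 18.6%, Cd8 alone in 34.5% and 29.1%, and neither in 9.26% and 10.5%. All 4 pairs of intervals overlapped between the libraries. The corresponding shares in Lyz2-high cells were 30.0% and 3.70% for both genes, 0% and 29.6% for Cd4 alone, and 20.0% and 14.8% for Cd8 alone. In unsignalled cells Cd4 alone was seen in 2.27% and 1.57%. Whether Lyz2-high cells express Cd4 themselves was not tested, so they do not set its background here.

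Rag1 or Rag2 was seen in 38.0% of gated control cells and 25.6% of gated knockout cells, against 40.0% of the 10 deeper control Lyz2-high cells and 24.1% of the knockout ones. The knockout share is therefore not told apart from that of Lyz2-high cells. In the control, Rag1 was at 311 CPM (289 to 335) in the gate and 51.0 CPM (20.5 to 105) in Lyz2-high cells, so its level in the gate was above background. Unsignalled cells had Rag1 or Rag2 in 89.1% and 93.9%. Ccr7, the receptor that guides selected thymocytes to the medulla, was seen in 19.4% (15.8 to 23.5) of gated control cells and 12.8% (6.56 to 21.7) of gated knockout cells, against 6.39% and 3.50% of unsignalled cells and 0 of 10 and 1 of 54 Lyz2-high cells, and the gated intervals overlapped. Foxp3, the regulatory T cell factor, was seen in 0 of 432 control cells, where the exact interval allows a share of up to 0.850%. It was seen in 1 of 86 knockout cells. Pdcd1, the inhibitory receptor PD-1, was seen in 20.1% (16.5 to 24.2) and 31.4% (21.8 to 42.3) of gated cells, against 1.58% and 0.921% of unsignalled cells, and these gated intervals overlapped too.

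Within the control gate, some genes outside the rule differed between bins of the Egr sum, which the rule used, and others did not. Over cells with an Egr sum of 2, 3 to 5, 6 to 12, and 13 or more (48, 121, 155 and 108 cells), Nr4a3 was at 20.8, 30.9, 113 and 346 CPM. Nfkbid, an NF-kB inhibitor gene, was at 58.2, 87.9, 163 and 358 CPM, and Gadd45b, a stress and signal response gene, at 12.5, 34.2, 88.1 and 201 CPM. Cd5 stayed level across the same bins, at 865, 834, 892 and 897 CPM, and Bcl2 had no order, at 520, 643, 706 and 597 CPM. The knockout bins held 16, 24, 26 and 20 cells. Nr4a3 was at 67.5, 27.0, 97.7 and 501 CPM in them, Nfkbid at 67.5, 126, 230 and 193 CPM, and Gadd45b at 67.5, 27.0, 69.8 and 48.2 CPM. Of the 3 genes, Nr4a3 was highest in the top bin of both libraries, while Nfkbid and Gadd45b were highest there in the control alone. The Egr sum shares these cells' depth with the other genes, so these bins are a description.

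By stage, control gated cells with Cd4 alone had Itm2a at 3188 CPM, Bcl2 at 1240 CPM and Zbtb7b at 149 CPM. Control cells with Cd8 alone had them at 944, 415 and 18.7 CPM. Zbtb7b encodes ThPOK, the factor that commits thymocytes to the CD4 lineage. Rag1 was at 606 CPM in control cells with Cd4 and Cd8 and at 42.3 CPM in those with Cd4 alone. Cd5 had another order, at 695 CPM with Cd4 alone, 750 CPM with Cd4 and Cd8, 1049 CPM with Cd8 alone and 1321 CPM with neither. Zbtb7b was at 87.5 CPM (45.2 to 153) in control Lyz2-high cells, an interval that overlaps the 114 to 192 CPM of cells with Cd4 alone.

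Between the libraries, a limited set of genes was past 1.5-fold in gated cells. Of 4391 genes with at least 100 UMIs over both libraries, 251 (5.72%) were past 1.5-fold higher and 389 (8.86%) were past 1.5-fold lower in the knockout, and the median log2 ratio over all was −0.02. With 86 knockout cells, a gene near the minimum had few knockout UMIs, so many of these ratios have wide intervals. In counts simulated with counting error only, 4.72% of unchanged genes were past 1.5-fold in either direction. Here 14.6% were, so part of the genes past the fold can come from counting error. When, for each gene, the gated cell with most UMIs in each library was left out, the lower count became 585 and the higher share of all genes past the fold dropped to 23.2% from 39.2%, an alternative chosen after seeing the data that removes 1 of 86 knockout cells but 1 of 432 control cells.

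Zfp36l2, which encodes an RNA-binding protein that promotes mRNA decay, was among the 12 highest genes. It was at 367 CPM in control and 942 CPM in knockout gated cells (ratio 2.57, 2.28 to 2.89), with 136 and 837 CPM in unsignalled cells. Lyz2-high cells held 175 and 423 CPM of it. Its difference was therefore present outside the gate in unsignalled thymocytes. The Lyz2-high values came from 10 control and 54 knockout cells of unlike depth (medians of 15029.5 and 2561 UMIs). A UMI of Zfp36l2 was present in 70.0% and 50.0% of them. The part of background in these values was not tested.

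Gosr2, a Golgi transport protein gene, was at 30.8 and 102 CPM (ratio 3.31, 2.22 to 4.88), while its unsignalled levels were 40.6 and 35.7 CPM. Mapre2, a microtubule end-binding protein gene, was at 31.7 and 76.4 CPM (ratio 2.41, 1.55 to 3.68), with 10.5 and 7.64 CPM in unsignalled cells. Rilpl2 was at 77.0 and 190 CPM (ratio 2.46), Cox16, an assembly factor of respiratory complex IV, at 41.5 and 104 CPM (ratio 2.51), Acadl, a fatty acid oxidation enzyme gene, at 31.2 and 78.7 CPM (ratio 2.52), and Tbc1d15 at 46.6 and 111 CPM (ratio 2.38). Gosr2 and Mapre2 were past 1.5-fold higher in gated cells and not in unsignalled cells, and the difference between the cell groups was not tested. With cells thinned to 2000 UMIs, the log2 ratios of Mapre2 and Cox16 were 0.13 and 0.42, inside the 1.5-fold limit.

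Some of the higher genes had many of their knockout UMIs in 1 cell or were also present in Lyz2-high cells. Gzma, a granule protease gene, was at 34.6 and 109 CPM in gated cells and 47.5 and 264 CPM in unsignalled cells. In Lyz2-high cells Gzma was at 7.29 and 206 CPM, so its knockout level in the gate lies below theirs. The part of background in the Gzma values was not tested. Ifi203, an interferon-inducible gene, was at 64.6 and 194 CPM (ratio 3.01), with 27 of its 84 knockout UMIs in 1 cell, and its log2 ratio of 1.59 became 1.17 without the top cell of each library. Crip1 was at 233 and 555 CPM (ratio 2.39), with 60 of 240 knockout UMIs in 1 cell, and its log2 ratio of 1.26 became 0.90. Mirt1, a noncoding RNA gene, was at 49.6 and 150 CPM (ratio 3.03), with 70.4 and 122 CPM in unsignalled cells.

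Zbtb7b, Tesc, Dok2 and Gimap3 were among the 12 lowest genes. Zbtb7b was at 55.6 CPM from 130 UMIs in the control gate and at 11.6 CPM from 5 UMIs in the knockout gate (ratio 0.208, 0.0665 to 0.498), with 9.06 and 1.35 CPM in unsignalled cells. It was seen in 14.4% of gated control and 5.81% of gated knockout cells, against 2.21% and 0.460% of unsignalled cells. Lyz2-high cells had it in 40.0% and 16.7%. Whether they express Zbtb7b themselves was not tested, so they do not set its background here. Tesc, which encodes the calcium-binding protein tescalcin, was at 72.3 and 16.2 CPM (ratio 0.224, 0.0887 to 0.472), with 34.2 and 6.52 CPM in unsignalled cells and 0 UMIs in the Lyz2-high cells of both libraries. Dok2, an adaptor that dampens receptor signals, was at 141 and 41.7 CPM (ratio 0.295, 0.173 to 0.474), with 97.9 and 27.6 CPM in unsignalled cells. Gimap3, a GTPase gene of lymphocyte survival, was at 61.2 and 16.2 CPM (ratio 0.265), with 25.3 and 7.19 CPM in unsignalled cells. For Zbtb7b, Tesc, Dok2 and Gimap3 the lower level was thus also present in unsignalled cells, where Zbtb7b was scarce in both libraries. With cells thinned to 2000 UMIs, the log2 ratio of Zbtb7b was −0.24 and that of Gimap3 −0.53, inside the 1.5-fold limit.

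Rpl22l1, Upf3a, Drosha, Papd5 and Rnaset2b were also among the 12 lowest. Rpl22l1, the paralog of ribosomal protein L22, was at 512 CPM from 1197 UMIs and 148 CPM from 64 UMIs (ratio 0.289, 0.221 to 0.372), with 329 and 166 CPM in unsignalled cells. Upf3a, a nonsense-mediated decay factor gene, was at 59.5 and 9.26 CPM (ratio 0.156, 0.0418 to 0.408), from 139 and 4 UMIs. Drosha, the nuclear nuclease that releases microRNA hairpins, was at 60.7 and 16.2 CPM (ratio 0.267), Papd5, a noncanonical poly(A) polymerase gene, at 44.9 and 13.9 CPM (ratio 0.309), and Rnaset2b, a ribonuclease gene, at 99.7 and 23.1 CPM (ratio 0.232). Their levels in unsignalled cells gave ratios of 0.505 for Rpl22l1, 0.690 for Upf3a, 0.628 for Drosha, 0.708 for Papd5 and 0.625 for Rnaset2b.

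Rag1 was at 311 and 90.3 CPM in gated cells (ratio 0.290, 0.204 to 0.400), and the Lyz2-high cells held 51.0 and 103 CPM. Knockout gated cells with Cd4 and Cd8 had 176 CPM (121 to 247) and those with Cd4 alone 34.1 CPM (7.04 to 99.8). Those with Cd8 alone had 8.64 CPM (0.219 to 48.2) and those with neither 49.0 CPM (5.93 to 177). The Lyz2-high level is thus not a floor for all of these cells, and the part of background in the 90.3 CPM was not tested. The log2 ratio of Rag1 was −0.48 with cells thinned to 2000 UMIs, in place of −1.79. Gpr83, a G protein-coupled receptor gene, had 99 UMIs in 25 control cells and 1 UMI in the knockout (ratio 0.0547, 0.00137 to 0.312), with 18 of the 99 in 1 cell. Its log2 ratio was −4.19. Without the top cell of each library the knockout sum was 0, and the floor of 3 counts gave −2.29 as an upper bound. With cells thinned to 3000 UMIs the floor gave a bound of −0.065, which does not show whether the ratio is past the fold. Ttyh3 had 114 UMIs in 93 control cells and 2 UMIs in the knockout (ratio 0.0949, 0.0114 to 0.351). These ratios rest on so few knockout UMIs that the intervals span more than 10-fold.

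**Figure D4:**
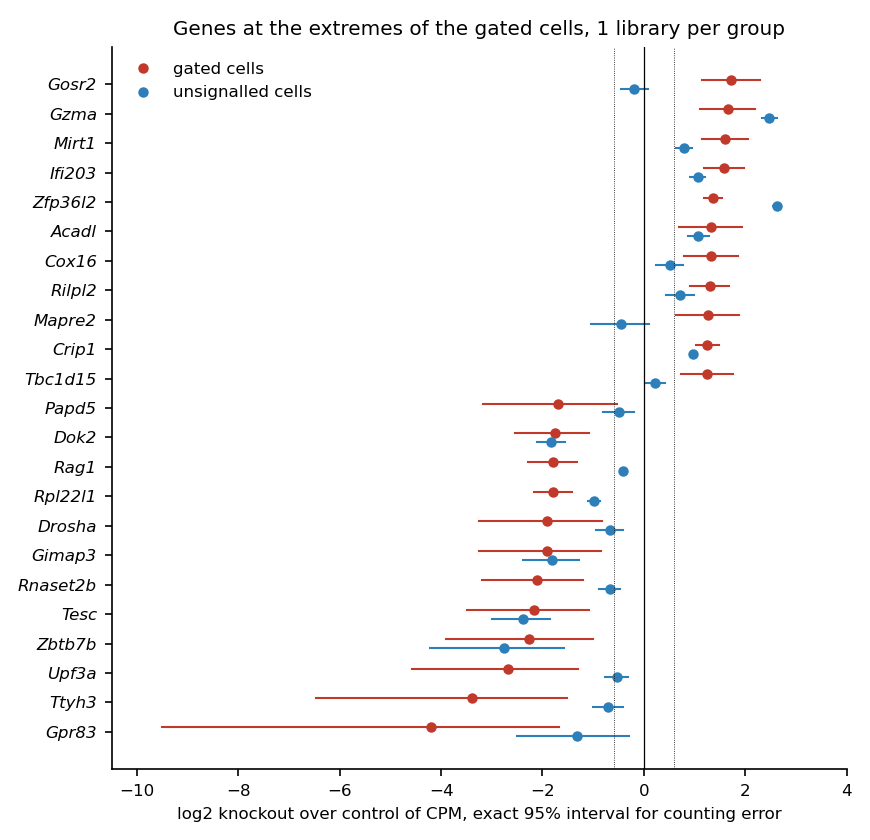
Log2 ratio of knockout over control CPM (x axis) for 11 of the 12 highest and the 12 lowest genes of gated cells (red), with the same ratio in unsignalled cells (blue), exact 95% intervals for counting error and dotted lines at 1.5-fold. Zfp36l2 and Tesc lie on the same side in both cell groups, while Gosr2 and Mapre2 have ratios of 3.31 and 2.41 in gated cells and of 0.880 and 0.730 in unsignalled cells.

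Most immediate early and feedback genes stayed inside 1.5-fold between gated cells of the libraries. Of 12 immediate early genes outside the rule, 2 were past 1.5-fold higher in the knockout, Fos (ratio 1.66, 1.04 to 2.58) and Klf6 (38.9 and 64.8 CPM, ratio 1.66), and 0 were lower, with a median log2 ratio of 0.09. For Fos, 10 of 27 knockout UMIs lay in 1 cell, and its log2 ratio of 0.73 became 0.18 without the top cell of each library. Nr4a3 (ratio 1.16), Ier2 (1.03), Junb (281 and 393 CPM, ratio 1.40) and Zfp36l1 (639 and 599 CPM, ratio 0.939) stayed inside 1.5-fold. Of 21 feedback inhibitors, 0 were higher and 3 were lower: Dusp6, the cytosolic ERK phosphatase (87.7 and 46.3 CPM, ratio 0.528), Dusp10, a phosphatase of JNK and p38 (114 and 69.4 CPM, ratio 0.608), and Dgka, a kinase that removes diacylglycerol (173 and 111 CPM, ratio 0.641). Among cells that met the Cd69 and Egr counts, 10 of 12 measured immediate early genes and 18 of 21 feedback inhibitors were within 1.5-fold of the control. Over all 4391 genes 14.6% were past the fold in either direction, so the 2 of 12 and 3 of 21 lie near that share.

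Few genes of the receptor and its relay were past the fold, near or below the shares over all genes (5.72% higher and 8.86% lower). Of 24 proximal genes, 1 was higher, the adaptor Grap2 (43.6 and 74.1 CPM, ratio 1.70), and 1 was lower, Themis, which sets the threshold of selection signals (380 and 229 CPM, ratio 0.603, 0.484 to 0.742). Lck was at 959 and 655 CPM (ratio 0.683, 0.601 to 0.773), just inside the limit. Of 25 relay genes, 2 were higher (Nfkb1 and Ppp3ca) and 2 were lower (Hras and Map2k2).

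Some positive selection genes were lower in the knockout gate. Of 33 measured, 0 were past 1.5-fold higher and 7 were lower in gated knockout cells, against 8.86% lower over all genes, and the list's median log2 ratio was −0.04 (between −0.12 and 0.10 under the alternatives). Bcl2 was at 639 and 347 CPM (ratio 0.543, 0.456 to 0.643), Cd40lg, the helper ligand, at 119 and 67.1 CPM (ratio 0.562), Ccr7 at 91.5 and 39.3 CPM (ratio 0.430, 0.246 to 0.705), and Id2, an inhibitor of E proteins, at 167 and 85.6 CPM (ratio 0.513). The others were Bcl11b, a T lineage factor (885 and 569 CPM, ratio 0.643), Zbtb7b and Tesc. Several other members of this list stayed inside 1.5-fold, among them Itm2a (1727 and 1345 CPM), Tox (926 and 1065 CPM) and Lef1 (1272 and 1118 CPM). In unsignalled cells the same list had a median log2 ratio of −0.31.

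Over all genes measured in the gate, 5.72% were higher and 8.86% lower in the knockout. Of 20 genes of the CD4+CD8+ stage, 0 were higher and 4 were lower (Rag1, Cdk19, Themis and Dgkeos), with a median log2 ratio of −0.35. That median changed sign with cells thinned to 2000 UMIs (0.10 over 12 genes) and without the 5% of cells with the highest doublet scores (0.04 over 18 genes). Of 14 death and survival genes, 1 was higher, Bcl2a1b (32.9 and 69.4 CPM, ratio 2.11, 1.33 to 3.25), and 3 were lower, Bcl2, Casp8 (120 and 71.7 CPM, ratio 0.599) and Gadd45b (98.4 and 53.2 CPM, ratio 0.541). Bcl2l11 (ratio 1.17) and Mcl1 (441 and 433 CPM) stayed inside 1.5-fold. Bcl2a1b has near-identical copies between which reads can be split, so its value is uncertain.

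Of the 24 pathway lists, agonist selection genes had the highest median, a log2 ratio of 0.56 over 9 measured genes. Of these 9, 4 were higher and 1 was lower, against 5.72% higher and 8.86% lower over all genes. Pdcd1 was at 57.3 and 111 CPM (ratio 1.94, 1.36 to 2.71), Tnfrsf9 at 43.6 and 85.6 CPM (ratio 1.96), Cd200 at 47.5 and 78.7 CPM (ratio 1.66) and Tnfrsf4, the receptor OX40, at 44.5 and 99.5 CPM (ratio 2.24). For Tnfrsf4, 38 of 43 knockout UMIs lay in 1 cell, which also held 8 UMIs of Tnfrsf9, 6 of Foxp3 and 60 of Crip1, and without the top cell of each library its log2 ratio of 1.16 became −1.74. Izumo1r, the folate receptor 4 gene of regulatory and activated T cells, was at 136 and 50.9 CPM (ratio 0.375, 0.232 to 0.579). The list's median was −0.14 with cells thinned to 3000 UMIs, where 3 genes were measured, and the log2 ratio of Pdcd1 was 0.39 at 2000 UMIs in place of 0.95. In unsignalled cells the list had a median log2 ratio of −0.81.

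The metabolic, ribosomal and splicing lists each held members past the fold, where 5.72% of all genes were higher and 8.86% lower. Of 13 glycolysis and hypoxia genes, 0 were higher and 4 were lower, with a median log2 ratio of −0.31: Pfkp, a phosphofructokinase gene (83.4 and 30.1 CPM, ratio 0.361), Gpi1 (189 and 123 CPM), Aldoa (248 and 157 CPM) and Egln3 (38.9 and 23.1 CPM). Of 13 mitochondrially encoded genes, mt-Co1 was higher (4810 and 9588 CPM, ratio 1.99) and mt-Nd2 and mt-Nd3 were lower (ratios of 0.623 and 0.510). Of 53 cytosolic ribosomal protein genes, 1 was lower, Rpl3 (1228 and 680 CPM, ratio 0.554). Of 39 core spliceosome genes, 2 were higher (Prpf4 and Aqr) and 4 were lower (Prpf6, Prpf19, U2af2 and Ddx46), and of 11 DEAH helicases and DHX15 partners only Dhx15 itself was past the fold. The counts for ribosomal protein and spliceosome genes lie near or below the shares over all genes. Of 9 heat shock genes measured, which cell dissociation can also induce, 0 were higher and 2 were lower, and their summed level in the gate was 6186 CPM in the control and 4927 CPM in the knockout.

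**Figure D5:**
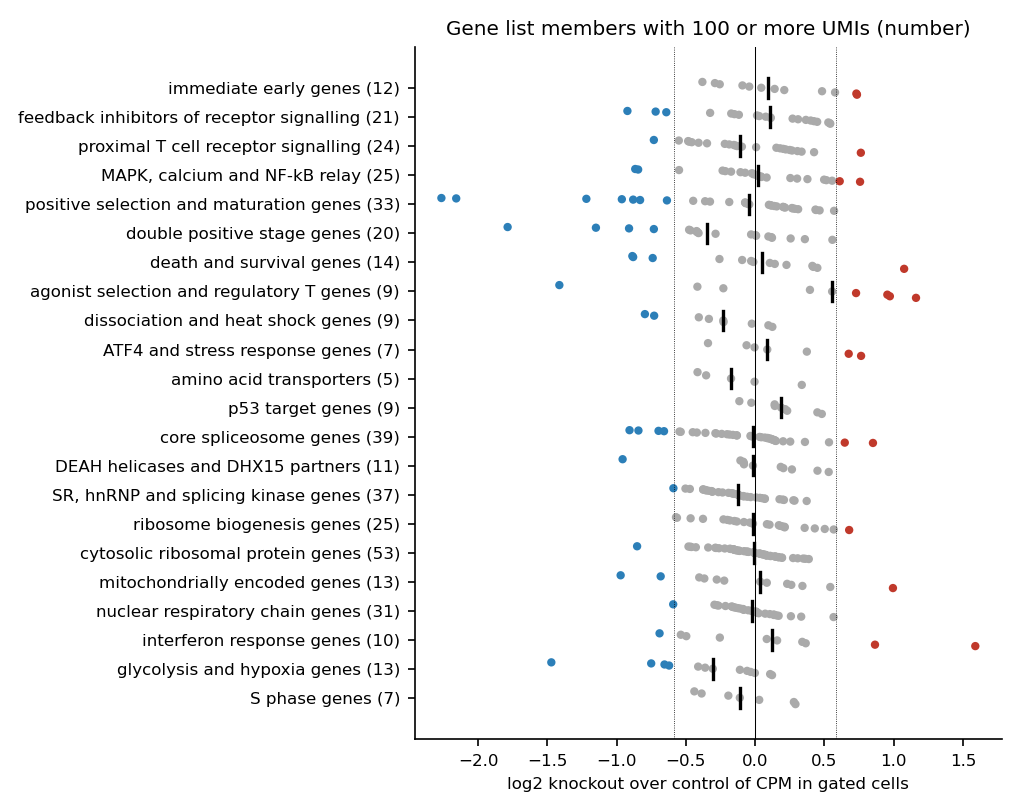
Log2 ratio of knockout over control CPM in gated cells (x axis) for each measured member of the gene lists named on the y axis (number of genes in parentheses), with black bars at list medians, dotted lines at 1.5-fold, and members past the fold in red (higher) or blue (lower). Agonist selection genes have the highest median of the lists drawn (0.56) and positive selection genes have 7 members to the left of the lower line.

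Markers of other cell types were low in the gate but not equal between the libraries. The summed level of 12 myeloid markers was 27.8 CPM in the control and 9.26 CPM in the knockout. Of them 4 and 8 were at 0, among them Lyz2, which the rule set to 0. Red cell markers were at 3.85 and 0 CPM. The 12 natural killer and innate markers were at 49.2 and 150 CPM, of which Gzma gave 34.6 and 109 CPM. Ncr1, Klrb1c, Klrk1, Eomes and Tbx21 were at 0 in both, and Klrd1 was at 0 by the rule. The 10 gamma delta T markers found in the matrix were at 8.98 and 85.6 CPM, of which Maf gave 0.428 and 46.3 CPM. Tcrg-V6 and Trdv4 were at 0 in both, and Trdc was at 0 by the rule. At least 1 UMI of these markers was seen in 27.9% of gated knockout cells against 4.17% of gated control cells. The 12 markers of immature CD4-CD8- thymocytes were at 44.1 and 83.3 CPM, the 11 dendritic cell markers at 189 and 310 CPM (5 and 7 at 0), and the 13 stromal markers at 109 and 113 CPM. The 9 B cell markers were at 186 and 405 CPM, and 95 of the 175 knockout UMIs lay in 1 cell. The part of these cells or of their free RNA in the differences between the libraries was not tested.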

How the data were processed

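Whole UMI counts per gene and cell for 1 control and 1 knockout thymus library were used as deposited by the authors. The file headers name Cell Ranger 6.0.1, while the submitters' processing notes name Cell Ranger 6.0.2, Scanpy 1.7.1 and mm10 with no role. The matrices hold 28692 genes, of which 67 symbols occur more than once and were kept by gene identifier. Libraries were grouped by their treatment labels, and the 19 bulk samples of the series were not used here.

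The members and the gene lists were chosen with earlier results of these data known. Cells were filtered and gated on raw UMIs as stated in the report. Counts were summed over cells and divided by all UMIs of those cells to give CPM. Ratios have exact conditional binomial intervals, shares have exact Clopper-Pearson intervals and CPM values have exact Poisson intervals, each at 95%. The 11 genes of the gate were left out of counts. A gene was measured with at least 100 UMIs over the sums compared and was past the fold at 1.5. A sum of 0 was set to a floor of 3 counts where that gives a bound, and has no ratio otherwise.

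Named genes were Dhx15, the gate genes and markers, the 12 highest and 12 lowest ratios between gated cells of the libraries, the 12 highest and 8 lowest of the smaller log2 ratio of gated over unsignalled cells, the 6 highest and 6 lowest differences of that contrast (at least 200 UMIs), and up to 6 members of each of 24 pathway lists. Predicted genes, receptor segments and sex-linked RNAs were left out of the ranked parts. A gene this rule takes is not reported here. Other genes given as members of a count were named after their values were seen.

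Doublets were not removed: Scrublet in scanpy 1.11.5 marked 0 of 8818 control cells and 1 of 7261 knockout cells and was not used as a caller. Python 3.11.15, numpy 2.4.6, scipy 1.17.1, pandas 2.3.3 and matplotlib 3.10.9 were used, and the interval code was tested on simulated data. The alternatives were thinning to 2000 or 3000 UMIs, other cell filters, gates and count minimums, a cap on UMIs and a 2-fold limit. Chosen after seeing the data were leaving out the 5% of cells with the highest Scrublet scores, dropping the Trdc, Klrd1 and Lyz2 exclusions, and leaving out the top cell of each gene.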

Additional observations from a re-analysis of the deposited data

Results flagged for a closer look

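Of 7507 genes with at least 200 UMIs over the 4 sums, 29 were past 1.5-fold in opposite directions in the libraries. These were higher in gated than in unsignalled cells of 1 library and lower in the other. Of these 29, Maf and Cd74 are in the gene lists. Some of the 29 rested on few gated knockout UMIs, as few as 2. The difference between the libraries was not tested, since each group is 1 library.

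Maf, a transcription factor gene of gamma delta T and helper lineages, had 1 UMI (0.428 CPM) in the 432 gated control cells and 57 UMIs (4.70 CPM) in unsignalled control cells. In the knockout it had 20 UMIs in 9 of 86 gated cells (46.3 CPM), of which 8 lay in 1 cell, and 132 UMIs (29.7 CPM) in unsignalled cells. The log2 ratio of gated over unsignalled cells was 4.10 higher in the knockout.

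Cd74, the MHC class II invariant chain gene, was at 24.8 CPM from 58 UMIs in gated and 46.5 CPM in unsignalled control cells. It was at 81.0 CPM from 35 UMIs in 11 gated knockout cells, with 9 UMIs in 1 cell, and at 37.5 CPM in unsignalled knockout cells. The log2 ratio of gated over unsignalled cells was 2.02 higher in the knockout.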

How the results depend on the processing

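No paired analysis was possible because each group is 1 library. Of 145 comparisons of a main value with an alternative, 96 kept their value within its error or within 1.5-fold for counts, and the knockout held the smaller gated share under each alternative. The planned Scrublet alternative marked 0 and 1 cells and gave no value, so the 5% of highest scores were left out instead.

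Gated shares of filtered control and knockout cells were 3.34% and 0.816% after thinning to 2000 UMIs, 3.80% and 0.895% without Egr1, and 5.56% and 1.54% without the Trdc, Klrd1 and Lyz2 exclusions; the control was 4.35% at an Egr sum of 3, and the knockout 1.57% with 1000 genes and 5% mitochondrial UMIs and 1.85% with a UMI cap. Of base cells they were 6.54% and 4.17% (thinned), 7.28% and 4.56% (without Egr1), 8.35% in the control at a sum of 3, and 7.79% in the knockout with 1000 genes. With 1000 genes, the base-cell log2 ratio of Cd69 turned to 0.21 from −0.04, that of Egr1 was −0.70 and that of Nr4a1 −0.030, so over base cells Egr1 stayed past 1.5-fold lower; the cause was not tested.

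Genes higher and lower in gated knockout cells numbered 51 and 134 after thinning to 2000 UMIs (27.6% higher), 118 and 219 at 3000 (fewer genes measured), 1048 and 1277 at a minimum of 20 UMIs, 2270 and 1488 with no minimum (60.4% higher), and 38 and 90 at 2-fold. Without each gene's top cell 585 were lower (23.2% higher). Gated over unsignalled cells, 981 were higher with no minimum, and 272 were higher and 380 lower at 2-fold. Nrgn turned to log2 −0.66 between gated cells after thinning to 2000 UMIs.

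After thinning to 2000 and 3000 UMIs, control cells had Cd4 and Cd8 in 22.5% and 28.2%, neither in 25.3% and 18.3%, Rag1 or Rag2 in 25.5% and 28.7%, and Ccr7 in 9.69% and 14.0%, with Cd8 alone in 39.2% at 2000. Knockout cells had Cd4 and Cd8 in 22.1% and 28.0%, neither in 30.2% and 29.3%, and Rag1 or Rag2 in 13.3% at 3000. Depth and the 86 knockout cells limit ratios of genes with few UMIs.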

Other observations

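The contrast of gated with unsignalled cells differed most between the libraries for genes that were scarce in 1 of the 4 sums. Nrgn, a calmodulin-binding protein gene, was at 58.2 CPM in gated and 9.64 CPM in unsignalled control cells, and at 111 and 0.674 CPM in the knockout, where 22 of its 48 gated UMIs lay in 1 cell. Nab2 was at 29.9 CPM in unsignalled control cells and 4.94 CPM in unsignalled knockout cells, while its gated levels were 314 and 262 CPM. Pdcd1 was at 7.17 and 2.47 CPM in unsignalled cells and at 57.3 and 111 CPM in gated cells. Ly6a had 38 of its 44 gated knockout UMIs in 1 cell. The lowest contrasts in the knockout, those of Gcfc2, Sh3bp5l, Trim23, Fez2, Prim2 and Tfpt, each rested on 1 UMI in gated knockout cells.

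Single gated knockout cells also carried many UMIs of other transcripts. A cell of 10615 UMIs held 27 of 84 Ifi203 and 22 of 34 Ifit1 UMIs, and 1 cell of 6659 UMIs held 25 of 26 Nr4a2 UMIs.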
